A study of Mus musculus with 45 samples.

Results

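The diet comparison described here is that of adipocytes from insulin-resistant mice after 8 weeks on a Western (high-fat) diet with those of mice of the same genotype after 8 weeks on a chow (low-fat) diet. All arrays that the labels place in these groups were taken, which gives 12 of the 45 arrays of the study: 5 DW8 mice (Western diet) and 7 DC8 mice (chow). Every one of the 45037 probe sets of the array was tested. All 12 mice were female C57BL/6 D mice, that is, heterozygous for deletions of the insulin receptor and of IRS1 and homozygous for deletion of ApoE (IR+/- IRS1+/- ApoE-/-), and their diets began when they were 8 weeks old. Both groups carry all 3 deletions, so the comparison is one of diet within that genotype, and no group of ApoE-/- mice (E mice) on chow for 8 weeks is among the samples used here. RNA came from adipocytes isolated from parametrial and periovarian fat, with 1 Affymetrix MG430 2.0 array for each mouse. The study followed insulin resistance over time, and its other groups are used here only beside the 8-week values: DW16 (n = 9) and DC16 (n = 5), D mice after 16 weeks on each diet, and, from ApoE-/- mice, 6 EW8 and 8 EW16 mice on Western diet for 8 and 16 weeks and 5 EC16 mice on chow for 16 weeks.

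Adipocytes of a mouse on a high-fat, cholesterol-rich diet take up and store lipid, and sterols that build up in a cell activate the nuclear receptor LXR, which switches on genes of cholesterol efflux, while synthesis of cholesterol through SREBP2 is turned down. The aryl hydrocarbon receptor, a sensor of planar aromatic compounds from food and from metabolism, switches on Cyp1a1. Insulin acts on adipocytes through its receptor, the IRS proteins, PI3-kinase and AKT, and chronic fat feeding is known to weaken this chain.

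Values are log2 levels after RMA normalization by the authors, differences are DW8 minus DC8 in log2 units with their SE, and a probe set was called where limma's p, adjusted by the method of Benjamini and Hochberg over all probe sets, lay under 0.01. Where a gene stands for a list, it is given by its probe set of highest mean level. A level belongs to its own probe set and is not set against that of another. The 12 arrays covered nearly the same range of values, with a median of 5.51 to 5.58 and an SD of 2.44 to 2.50 in DW8 mice, against 5.51 to 5.57 and 2.44 to 2.51 in DC8 mice. One chow-fed mouse stood apart. In DC8 mouse 1 the called probe sets that were at least 2-fold higher in DW8 mice lay a median of 0.72 above the mean of the DC8 group, against -0.20 to 0.72 over all DC8 mice with a median of -0.14, and 0.97 to 1.52 in DW8 mice. The library was kept. The total count is also given without it, as are differences of most of the genes described in which this mouse stood far above its group and of those described whose call it changed.

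After 8 weeks of Western diet 485 probe sets (1.08% of 45037) were called, 415 higher in DW8 mice (0.921%) and 70 lower (0.155%). They belong to 358 genes with a single symbol, 297 higher and 61 lower, and 57 of the called probe sets have no symbol or several. The differences of those called higher had a median of 0.85 and reached 2.89, with 156 at least 2-fold. Those called lower had a median of -0.57 and reached -2.66, with 10 at least 2-fold, beside a median of -0.02 over all probe sets. Every DW8 mouse lay above every DC8 mouse in 318 of the 415 called higher, and below every DC8 mouse in 64 of the 70 called lower, beside 1.67% and 1.16% of all probe sets in those directions (2.83% in either). Without DC8 mouse 1, 1165 probe sets were called, 839 higher and 326 lower, and without DW8 mouse 3, 140 were called. In all, 8585 probe sets had an unadjusted p under 0.05.

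Of 12 measured genes of a list of LXR and its targets, 3 rose and none fell, with a median difference of 0.33, beside a median of -0.04 and, among all 18193 genes taken in this way, 97 called higher (0.533%), 48 lower (0.264%) and 145 in either direction (0.797%). The mean level over the list was 9.99 to 10.28 in DW8 mice and 9.60 to 9.84 in DC8 mice, with no overlap. That mean includes the 3 called genes and so is not separate from their calls. The list also includes Apoe, which is deleted in both groups. Abcg1, a transporter that passes cholesterol to HDL, had levels of 12, 11.46, 11.73, 11.21 and 11.18 in DW8 mice 1 to 5, against 9.51 at the lowest, 9.88 at the median and 10.75 at the highest in DC8 mice. All 5 DW8 mice lay above all 7 DC8 mice, and the difference was 1.55 (SE 0.20, 2.93-fold, adjusted p = 0.00162). It stayed called without any single mouse, and without DC8 mouse 1 it was 1.56 (adjusted p = 0.000786). A second Abcg1 probe set was called too, at 1.03 (SE 0.19, adjusted p = 0.0088), though there the groups overlapped. That second call was lost for 8 of the 12 mice left out in turn, at adjusted p of up to 0.0292.

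Gramd1b, a protein that carries cholesterol from the plasma membrane to the endoplasmic reticulum, stood at 9.31, 8.93, 8.88, 8.46 and 8.24 in DW8 mice 1 to 5, against 6.86, 7.58 and 8.01 at the lowest, median and highest DC8 mouse. The groups did not overlap, with a difference of 1.26 (SE 0.21, adjusted p = 0.00494), and its other probe set rose by 1.51 (adjusted p = 0.0052). Abca1, the transporter that loads cholesterol onto lipid-poor apolipoproteins, stood at 13.32, 13.20, 13.55, 13.36 and 13.31 in DW8 mice, against 12.65, 12.89 and 13.01 in DC8 mice. Its rise was smaller, 0.50 (SE 0.08, adjusted p = 0.00541), again with no overlap. With single mice left out in turn, this Gramd1b call was lost for 6 of the 12 mice and that of Abca1 for 9, at adjusted p of up to 0.0172 and 0.0193 and with differences of 1.13 to 1.40 and 0.45 to 0.54. Lpcat3, an LXR target that remodels phospholipids, differed by 0.38 and was not called (adjusted p = 0.0574), and neither were the sterol transporters Abcg5 (-0.07, adjusted p = 0.696) and Abcg8 (-0.18, adjusted p = 0.406).

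The promoter of Abca1 is printed because its element for LXR with its partner RXR, a pair of half-sites in the same direction, is the textbook example of how this group is switched on. The sequences here are RefSeq's for GRCm38.p6 and run 5′ to 3′ on the strand of the gene; Abca1 lies at chr4:53159846-53160145, minus strand, and Cyp1a1, described after it, at chr9:57697363-57697662, plus strand. Capitals mark, in Abca1, the motif GGTNA followed after 5 bases of any kind by a further GGTNA, here found on the opposite strand with its first base at -67 from the start, and GCGTG, the core of the element of the aryl hydrocarbon receptor, in Cyp1a1, on the printed strand at -54. Both motifs were searched on both strands.
Abca1: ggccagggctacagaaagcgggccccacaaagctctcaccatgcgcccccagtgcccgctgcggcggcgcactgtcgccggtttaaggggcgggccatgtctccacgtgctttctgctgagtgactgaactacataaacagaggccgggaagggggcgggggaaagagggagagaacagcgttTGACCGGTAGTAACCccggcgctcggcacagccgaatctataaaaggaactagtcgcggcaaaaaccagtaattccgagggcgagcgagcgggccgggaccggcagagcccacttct
Cyp1a1: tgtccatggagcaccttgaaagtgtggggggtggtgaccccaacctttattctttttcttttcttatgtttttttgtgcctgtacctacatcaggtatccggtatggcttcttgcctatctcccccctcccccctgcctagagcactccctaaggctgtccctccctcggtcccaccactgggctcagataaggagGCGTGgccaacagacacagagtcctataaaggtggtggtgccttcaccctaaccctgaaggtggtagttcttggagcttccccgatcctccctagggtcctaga
Among 27025 promoters of the same length, the motif of LXR with RXR occurred in 196 (0.725%) and GCGTG in 8772 (32.5%). In the promoters of genes called higher that motif occurred in 2 of 248 (0.806%), and in those of genes called lower in 1 of 49 (2.04%), while GCGTG occurred in 134 of the same 248 (54%) and in 21 of the 49 (42.9%). A match describes the letters only. Abcg1 and Gramd1b have no entry.

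Cyp1a1, a cytochrome P450 that oxidizes aromatic compounds and the classical target of the aryl hydrocarbon receptor, had the largest fall of any called probe set with a single symbol. Its level was 9.25, 7.09, 8.60, 8.83 and 7.88 in DW8 mice 1 to 5, against 10.04, 10.80 and 11.85 at the lowest, median and highest DC8 mouse. The highest DW8 mouse lay below the lowest DC8 mouse, and the difference was -2.55 (SE 0.35, adjusted p = 0.00198), or 5.84-fold. Without DC8 mouse 1 it was -2.60 (adjusted p = 0.00108), and it stayed called without any other mouse. The fall was not shared by the list of this receptor: of 9 measured genes Cyp1a1 alone was called by its highest-level probe set, and the median was -0.00. Tiparp, a receptor target that feeds back on it, moved the other way. One of its probe sets stood at 12.50, 12.27, 12.39, 12.47 and 12.58 in DW8 mice, against 11.52, 11.68 and 12.08 in DC8 mice, with no overlap and a rise of 0.71 (SE 0.10, adjusted p = 0.00255), while the one of highest level differed by 0.28 (adjusted p = 0.026).

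**Figure D1:**
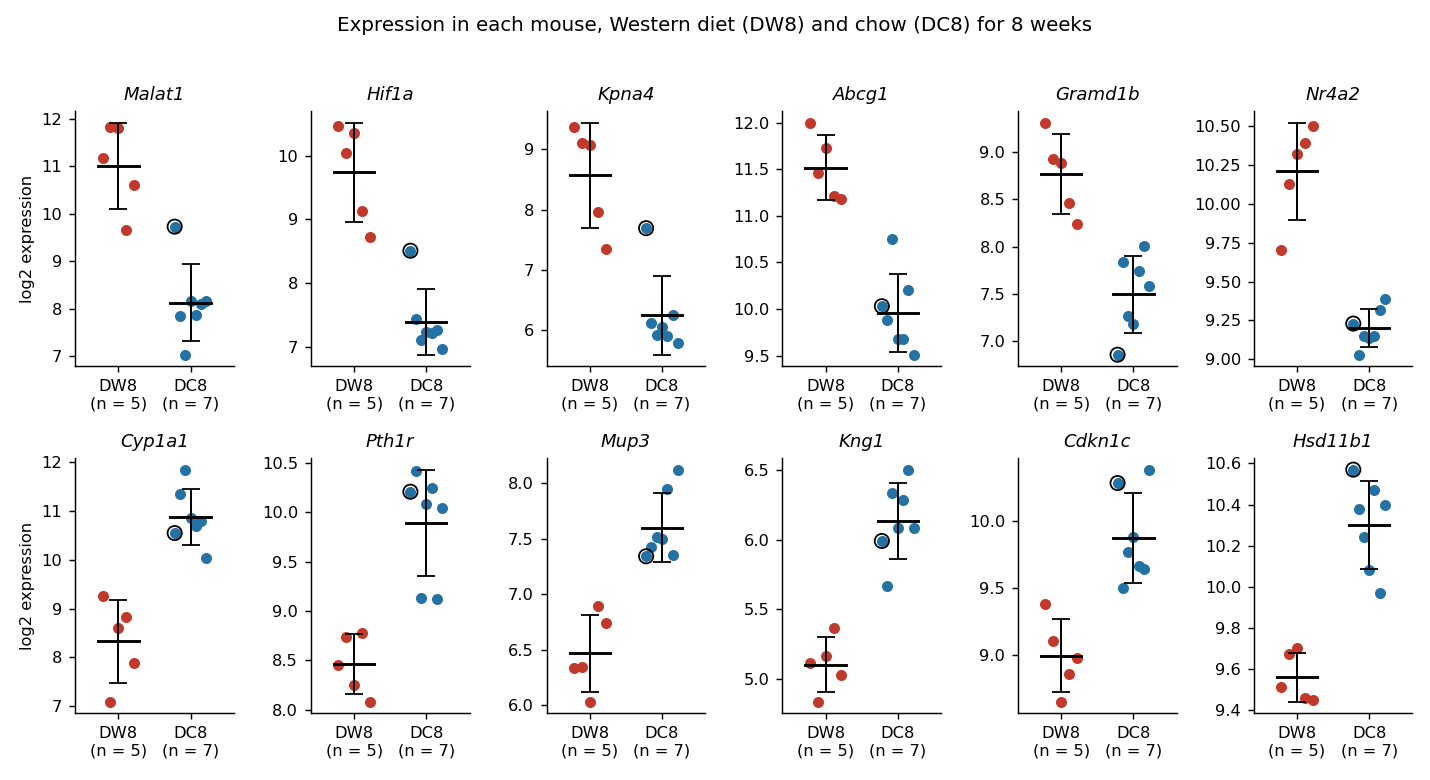
Log2 level in each DW8 mouse (left in each panel) and each DC8 mouse (right) for 12 probe sets, with the mean and SD as line and bar and DC8 mouse 1 ringed in black. DW8 mice lie wholly above DC8 mice for Abcg1 and wholly below them for Cyp1a1, while the ringed DC8 mouse reaches into the DW8 range for Malat1 and Kpna4.

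By limma at an adjusted p under 0.01 the lists of lipid synthesis held no call by highest-level probe sets. Of 21 measured genes of cholesterol synthesis and uptake, 16 (76.2%) had differences below 0, with a median of -0.37, beside 61.1% of all genes below 0, and 6 had an unadjusted p under 0.05, beside 20.9% of all genes. Mvk, the mevalonate kinase, differed by -0.47 (adjusted p = 0.0344), Fdps, which makes farnesyl diphosphate, by -0.89 (adjusted p = 0.137) and Cyp51, the lanosterol demethylase, by -0.63 (adjusted p = 0.17). The list of fatty acid and triglyceride synthesis had a median of -0.24 over 20 genes, 4 of them at an unadjusted p under 0.05. Its largest differences were those of Elovl6, a fatty acid elongase (-1.37, adjusted p = 0.149), and Mlxipl, which codes for the carbohydrate-responsive factor ChREBP (-0.85, adjusted p = 0.0854), and neither was called. Fads2, the delta-6 desaturase, fell in one probe set, at 6.35, 6.65, 6.52, 6.55 and 6.48 in DW8 mice, against 6.75, 7.06 and 7.25 in DC8 mice. That difference was -0.52 (SE 0.09, adjusted p = 0.00716), with no overlap. The 2 other Fads2 probe sets had a median of -0.49 and were not called. Fatty acid oxidation had a median of 0.14 over 20 genes and no call (8 at an unadjusted p under 0.05), with Cpt1a, which lets fatty acids into mitochondria, at 0.43 (adjusted p = 0.0289). Among 15 thermogenic genes, with a median of 0.20 and no call (7 at an unadjusted p under 0.05), Ucp1, the uncoupling protein of brown fat, differed by 1.94 (adjusted p = 0.0583).

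Pth1r, Hsd11b1 and Gpihbp1 fell, each as the one member of its list called by its highest-level probe set. The lists did not move with them: 18 hormone receptors of adipocytes had a median of 0.08 with 12 above 0, 15 genes of the glucocorticoid receptor and its targets one of 0.14 with 11 above 0, and 18 of lipolysis and the lipid droplet one of 0.03 with 10 above 0. Pth1r, the receptor of parathyroid hormone, had levels of 8.45, 8.74, 8.25, 8.78 and 8.08 in DW8 mice, against 9.12, 10.09 and 10.42 at the lowest, median and highest DC8 mouse. No DW8 mouse reached the lowest DC8 mouse, and the difference was -1.43 (SE 0.23, adjusted p = 0.0042). Hsd11b1, the enzyme that regenerates active glucocorticoid inside the adipocyte, stood at 9.51, 9.67, 9.70, 9.46 and 9.45 in DW8 mice, against 9.97, 10.38 and 10.57 in DC8 mice. Within DW8 these levels were close to one another (SD 0.12), and the difference was -0.74 (SE 0.10, adjusted p = 0.00209). Gpihbp1, which anchors lipoprotein lipase to the capillary wall, stood at 10.05, 10.02, 9.97, 9.77 and 10.03 in DW8 mice, against 10.31, 10.63 and 11.07 in DC8 mice, again apart, with a difference of -0.63 (SE 0.12, adjusted p = 0.00804).

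Kng1, which codes for kininogen, and Mup3, a major urinary protein, belong to a list of genes best known from liver. Kng1 stood at 5.12, 4.84, 5.17, 5.37 and 5.03 in DW8 mice, against 5.67, 6.08 and 6.50 in DC8 mice, with no overlap and a difference of -1.03 (SE 0.13, adjusted p = 0.00162). These are low signals, in DW8 mice below the median of 5.54 over all probe sets, and the other Kng1 probe set differed by 0.01. Mup3 stood at 6.33, 6.34, 6.03, 6.89 and 6.74 in DW8 mice, against 7.34, 7.50 and 8.12 in DC8 mice, a difference of -1.13 (SE 0.17, adjusted p = 0.00282), but its probe set can bind near-identical members of the Mup family and so the gene is uncertain. The other Mup3 probe set differed by 0.04. Of the 13 measured genes of that list 12 were below 0, with a median of -0.25, and 2 fell by their highest-level probe sets. Vtn, which codes for vitronectin, a protein of plasma and matrix outside that list, fell by 0.71 (adjusted p = 0.0042).

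The cell cycle inhibitor Cdkn1c, an imprinted gene, stood at 9.38, 9.10, 8.65, 8.86 and 8.98 in DW8 mice, against 9.50, 9.77 and 10.38 in DC8 mice, a difference of -0.88 (SE 0.16, adjusted p = 0.00853) with no overlap. Tle1, a Groucho corepressor, had the smallest adjusted p of the falls named here. Its levels were 8.46, 8.32, 8.44, 8.27 and 8.21 in DW8 mice, against 8.94, 9.11 and 9.32 in DC8 mice, which gave -0.78 (SE 0.08, adjusted p = 0.00103). Gclm, the modifier subunit of the enzyme that starts glutathione synthesis, stood at 10.26, 10.27, 10.36, 10.18 and 10.15 in DW8 mice, against 10.44, 10.68 and 10.91 in DC8 mice. The groups were apart, with a difference of -0.46 (SE 0.09, adjusted p = 0.00934), and Gclm was the only one of 23 measured NRF2 target and glutathione genes to be called. Hmox1, the heme oxygenase of that list, differed by -1.28 and was not called (adjusted p = 0.0174). The remaining falls among the 15 largest were those of Dgcr6, Slc38a10, Rtca, Smim1, Ptp4a3, St3gal6 and Tbcc, from -0.74 to -0.66, and groups overlapped only for Rtca and Smim1 among these 7. Tle1, Hsd11b1, Kng1 and Cyp1a1 stayed called without any single mouse, while the calls of Pth1r, Mup3, Cdkn1c, Gpihbp1, Gclm and Fads2 were lost without some, at adjusted p of up to 0.0157, 0.0102, 0.0276, 0.0244, 0.024 and 0.0225. Calls were lost as well for Ptp4a3, Rtca and Smim1 (each without 11 of the 12 mice in turn), Vtn (8), Slc38a10 and St3gal6 (7 each), Tbcc (3) and Dgcr6 (1), at adjusted p of up to 0.0296. Without DC8 mouse 1 Rtca differed by -0.71 (adjusted p = 0.0104).

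Among probe sets with 1 symbol, those of Malat1, Ube3a, Hif1a, Kpna4 and Cdkn1b had the largest rises. Malat1, a long noncoding RNA held in nuclear speckles, was the one called of 9 measured long noncoding RNAs, whose median was 0.08. It had levels of 11.17, 11.83, 11.81, 9.67 and 10.61 in DW8 mice 1 to 5, against 7.03, 8.09 and 9.73 at the lowest, median and highest DC8 mouse. Only DC8 mouse 1, at 9.73, lay above the lowest DW8 mouse, and without it the difference was 3.16 (adjusted p = 0.000144) in place of 2.89 (SE 0.42, adjusted p = 0.00272). In another Malat1 probe set the groups were apart, at 13.20, 13.73, 13.79, 12.32 and 13.05 in DW8 mice, against 10.28, 10.79 and 12.29 in DC8 mice, a difference of 2.28 (SE 0.31, adjusted p = 0.00198), or 2.50 without DC8 mouse 1 (adjusted p = 3.76e-05). Hif1a, the oxygen-regulated transcription factor, stood at 10.47, 10.04, 10.36, 9.13 and 8.72 in DW8 mice, against 6.97, 7.23 and 8.51 in DC8 mice, with a difference of 2.35 (SE 0.31, adjusted p = 0.00194). DW8 mice 4 and 5 were the lowest of their group for Hif1a, as for several of these genes, and DC8 mouse 1 the highest of its own, without which the difference was 2.54 (adjusted p = 0.000128).

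Ube3a, a ubiquitin ligase, stood at 7.93, 7.74, 7.83, 6.23 and 6.05 in DW8 mice, against 4.14, 4.60 and 5.80 in DC8 mice, with a rise of 2.41 (SE 0.35, adjusted p = 0.00281). Kpna4, an importin that carries proteins into the nucleus, stood at 9.38, 9.11, 9.07, 7.96 and 7.35 in DW8 mice, against 5.78, 6.05 and 7.69 in DC8 mice, where DC8 mouse 1 again overlapped the lowest DW8 mouse (difference 2.33, SE 0.37, adjusted p = 0.00395). Cdkn1b, the cell cycle inhibitor p27, stood at 6.77, 6.12, 6.37, 4.84 and 6.45 in DW8 mice, against 3.59, 3.87 and 4.57 in DC8 mice (difference 2.16, SE 0.27, adjusted p = 0.00162). Apart from Kpna4, these groups did not overlap. The chow levels of Ube3a and Cdkn1b are low signals beside the DC8 median of 5.55 over all probe sets. Cdkn1b lay below it in every DC8 mouse, and so did the DC8 median of Ube3a. The other 10 of the 15 largest rises were those of Syne2, Rad23b, Utrn, Baz1b, Itsn2, Clip1, Slmap, Cpeb4, Scoc and U2surp, from 1.72 to 2.09, with an overlap between groups for Utrn and Scoc only. Signals were low for Baz1b, Slmap and Scoc too, where every DC8 mouse but mouse 1 lay at or below 5.41, 4.96 and 5.24. Without DC8 mouse 1 the difference was 2.57 for Kpna4 (adjusted p = 0.000236) and 1.91 to 1.99 for Utrn, Baz1b, Itsn2, Slmap, Scoc and U2surp, in which that mouse also stood far above its group. Calls were lost without some single mice for Ube3a, Kpna4, Syne2, Utrn, Clip1 and Scoc, at adjusted p of up to 0.0102, 0.015, 0.0142, 0.0111, 0.0118 and 0.0276.

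Probe sets of the same gene differed widely in the size of these rises. Hif1a, called in 1 probe set at 2.35, had a median difference of 0.37 over its 3 others, Kpna4 (2.33) had 0.20 in its other one and Syne2 (2.09) had a median of 0.24 over 3 others. Ube3a was called in 2 probe sets, at 2.41 and 0.67, and had a median of 0.29 over its 4 others. A second probe set of Cdkn1b differed by 0.40 (adjusted p = 0.0189) and was called without DC8 mouse 1 (0.45, adjusted p = 0.00333). Of the 297 genes called higher, 279 had more than 1 probe set, and every one of them was called in 6 of these genes. The 348 called probe sets of these genes had a median of 0.85 and the 761 others a median of 0.16, of which 609 (80%) were above 0. Since the call chose the higher probe sets, part of that gap is set by the choice. Of the 61 genes called lower, 37 had more than 1 probe set, with a median of -0.52 in those called and -0.22 in the 61 others. The highest-level probe set was among those called in 79 of the 279 genes called higher and in 24 of these 37. Where in the transcript each probe set lies was not analysed here.

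**Figure D2:**
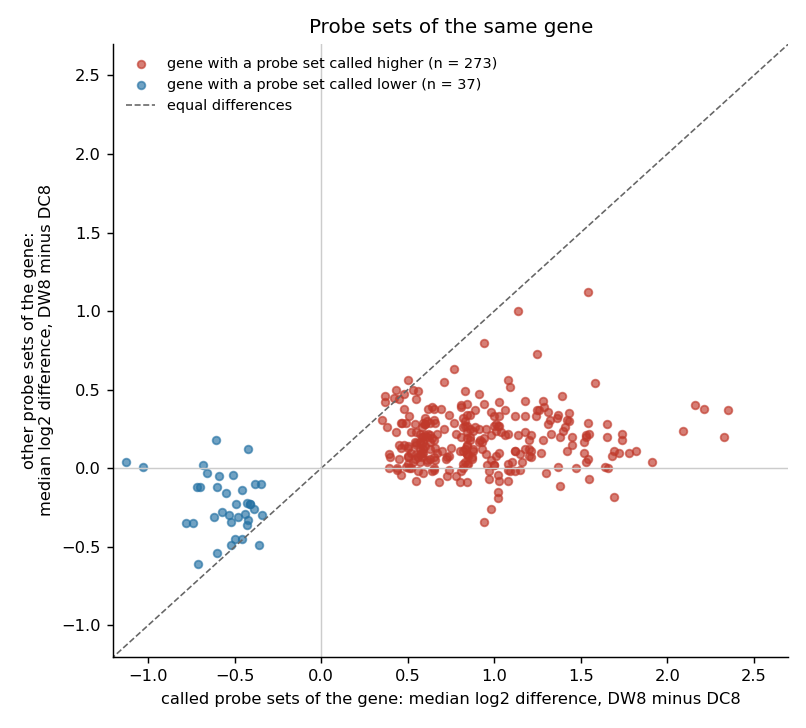
Median log2 difference (DW8 minus DC8) of the called probe sets of a gene against that of its other probe sets, for genes with both; each point is a gene, and the dashed line marks equal values. Most genes called higher lie on the side where the called probe sets differ by more, and the call itself chose those probe sets.

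Genes called higher also spanned more of the genome. From the start to the end of the annotated gene their median was 66.8 kb (295 genes), against 9.24 kb for genes called lower (61 genes) and 20.3 kb for all genes (18032). When genes were put in order of span and divided into 10 groups of nearly equal size, 0.0422% of probe sets were called higher in the group of the shortest genes and 2.23% in that of the longest. The calls in the other direction ran against this, at 0.464% in the shortest and 0.0212% in the longest. The median difference of all genes moved little with span, at -0.05 in the shortest group and -0.00 in the longest.

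**Figure D3:**
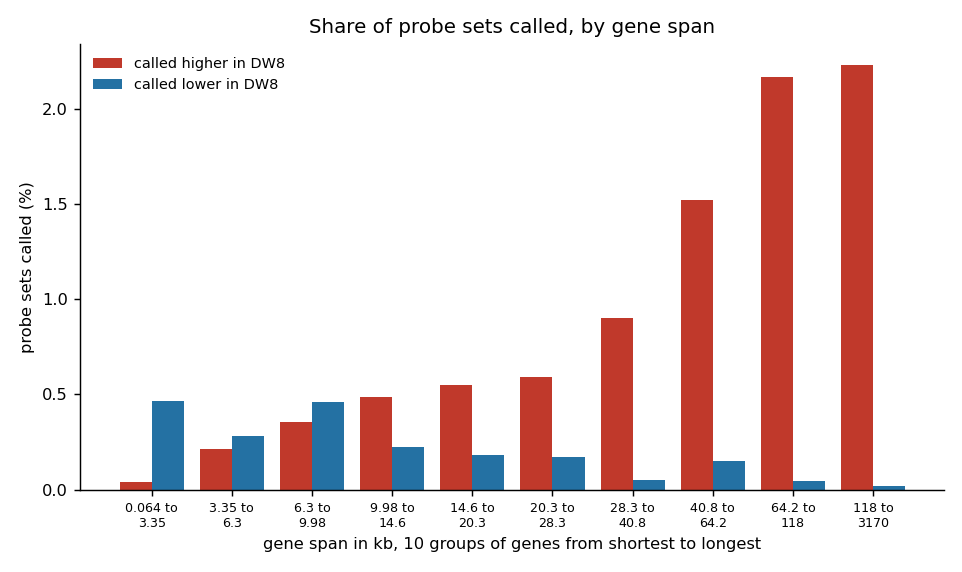
Percent of probe sets called higher or lower in DW8 against DC8 in 10 groups of genes ordered by the length of genome they span, from short to long. Calls of higher levels make up 2.23% of probe sets in the longest group and 0.0422% in the shortest.

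By the highest-level probe set 0.533% of all genes were called higher and 0.264% lower. Of 28 measured chromatin remodelers and cofactors 4 rose by that probe set and none fell, with a median of 0.21. These were Arid1b, a subunit of the BAF complex (0.71, adjusted p = 0.00272), Atrx, a remodeler of heterochromatin (0.44, adjusted p = 0.00301), the histone methyltransferase Kmt2c (0.60, adjusted p = 0.00347) and Smarca2, an ATPase of the BAF complex (0.70, adjusted p = 0.00941). When any probe set of a gene was taken, 9 of the 28 were called, beside 1.63% of all genes called higher in this way. These shares are not alike, since the 28 genes have 88 probe sets and all 18193 genes have 34945. Among 30 measured splicing factors and hnRNPs, 26 were above 0 with a median of 0.12, and 1 was called. This was Rbm25, a splicing regulator, at 9.31, 9.23, 9.63, 9.20 and 9.24 in DW8 mice, against 8.19, 8.28 and 9.17 in DC8 mice (difference 0.91, SE 0.15, adjusted p = 0.00528). The groups met closely but did not overlap, with DC8 mouse 1 the highest of its own, and further probe sets of Rbm25 rose by 1.21 (adjusted p = 0.00529) and 1.03 (adjusted p = 0.00696). Without that mouse the first difference was 1.03 (adjusted p = 2.68e-05). With single mice left out in turn, the call of Smarca2 was lost for 11 of the 12 mice, that of Rbm25 for 9, that of Kmt2c for 2 and that of Atrx for 1, at adjusted p of up to 0.0307. None of 18 large ubiquitin ligases was called by its highest-level probe set, with a median of 0.08 and 7 at an unadjusted p under 0.05. By any of their 73 probe sets 6 were called (Ube3a, Birc6, Herc1, Herc2, Trip12 and Nedd4), where 1.63% of all genes were called higher.

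Nr4a2, an orphan nuclear receptor that is induced early after many stimuli, stood at 9.70, 10.13, 10.32, 10.39 and 10.50 in DW8 mice, against 9.03, 9.15 and 9.39 in DC8 mice. The DW8 mice were all higher, by 1.01 (SE 0.12, adjusted p = 0.00155), and the call held without any single mouse. It was the one call among 29 measured immediate early genes, whose median was 0.13. Steap3, an iron reductase (0.59, adjusted p = 0.0073), and Hk2, hexokinase 2 (0.43, adjusted p = 0.00912), rose as well, each losing its call without 9 or 10 of the 12 mice in turn. Hk2 was the one called of 13 measured glycolysis genes, of which 11 were below 0, with a median of -0.18. Of 18 cytosolic heat shock genes 17 were below 0, with a median of -0.31 and no call (9 at an unadjusted p under 0.05). Hspb1 differed by -0.97 (adjusted p = 0.0206) and Hspe1 by -0.47 (adjusted p = 0.0168). Of 27 proliferation genes 22 were below 0, with a median of -0.33 and no call (16 at an unadjusted p under 0.05). Without DC8 mouse 1, Mcm6, a subunit of the replicative helicase, was called at -0.79 (adjusted p = 0.00269), against -0.67 with all mice (adjusted p = 0.036). Cdc20, an activator of the anaphase-promoting complex, was called without that mouse at -0.79 (adjusted p = 0.00905), against -0.70 (adjusted p = 0.0335), in a probe set that can bind near-identical sequences. The medians of oxidative phosphorylation (28 genes) and of ribosomal proteins (23 genes) were both -0.10.

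**Figure D4:**
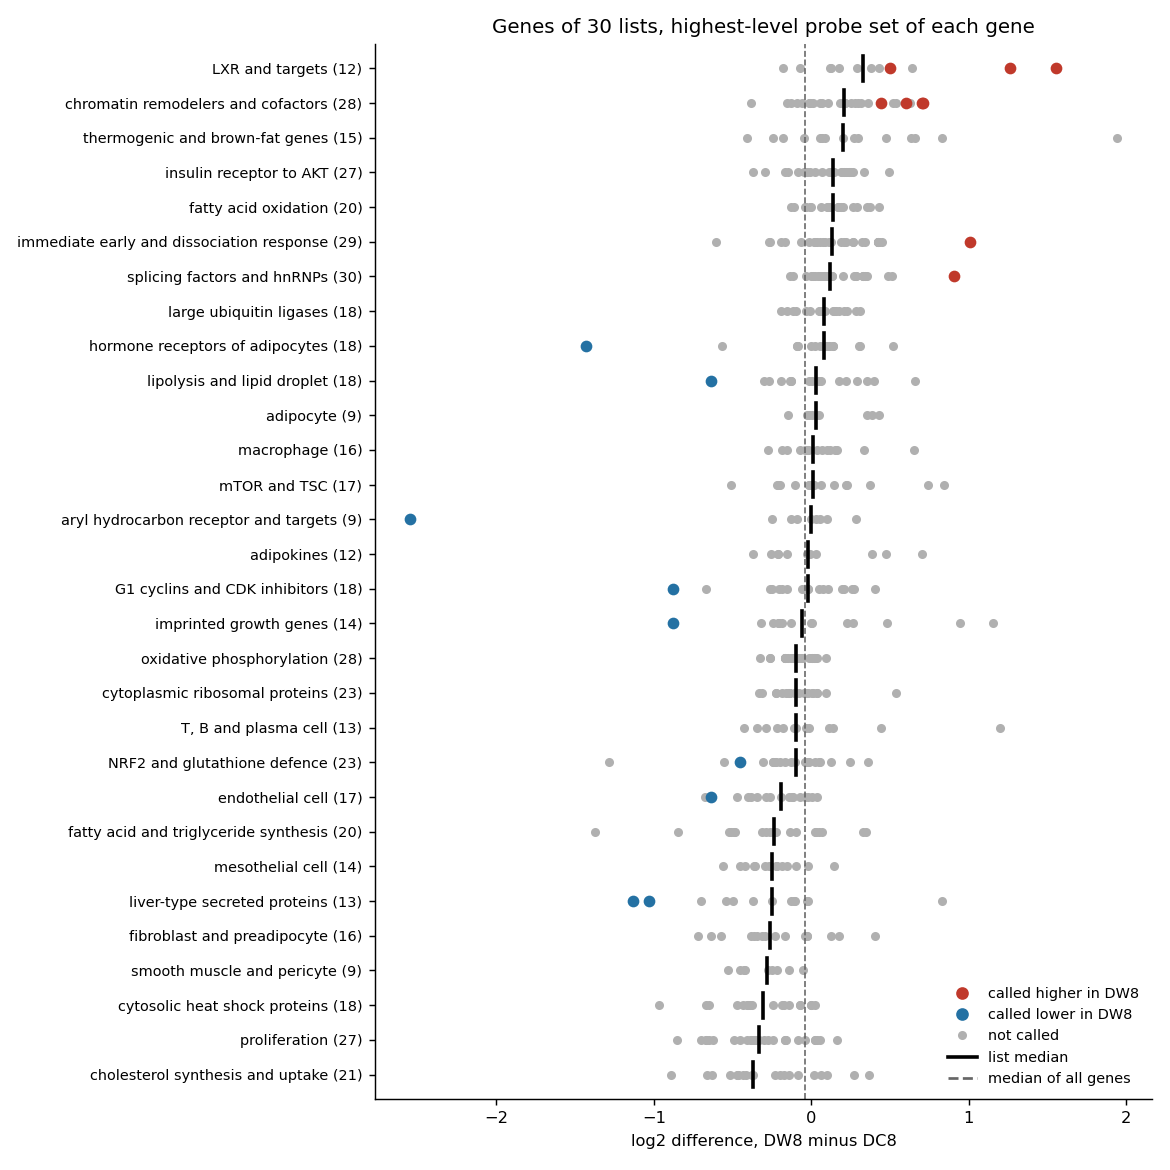
Log2 difference (DW8 minus DC8) of each measured gene in 30 lists, by the probe set of highest level; red points were called higher, blue points called lower, black bars are medians and the dashed line is the median of all genes, -0.04. Calls are few in every list, and the list of LXR targets has 3 of its 12 genes called higher.

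In the insulin pathway the calls lay in some probe sets of a gene and not in others. None of 27 measured genes between the insulin receptor and AKT was called by its highest-level probe set, and their median was 0.14, with 10 at an unadjusted p under 0.05. By any probe set 3 were called higher, Pik3r1, Ptpn11 and Gsk3b, beside 1.63% of all genes called higher in this way. The 27 genes have 73 probe sets, and all 18193 genes have 34945. Insr, of which all these mice lack a copy, differed by 0.33 (adjusted p = 0.112), Irs1 by -0.04 (adjusted p = 0.934) and Irs2 by 0.24 (adjusted p = 0.485). Apoe, deleted in both groups, differed by 0.64 and was not called (adjusted p = 0.163). Pik3r1, the regulatory subunit of PI3-kinase, rose in 1 probe set to 9.88, 9.70, 10.49, 10.29 and 10.51 in DW8 mice, against 8.78, 9.05 and 9.53 in DC8 mice. All DW8 mice were above all DC8 mice, with a difference of 1.11 (SE 0.15, adjusted p = 0.00205), and this call held without any single mouse. In a second probe set Pik3r1 rose by 0.66 (adjusted p = 0.00693), a call lost without 8 of the 12 mice in turn, at adjusted p of up to 0.0208. The Pik3r1 probe set of highest level differed by 0.50 (adjusted p = 0.0102), also with no overlap, and the remaining one by 0.24.

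Another 3 genes of insulin and adiponectin action were chosen after their values had been seen. Gsk3b, a kinase that restrains glycogen synthesis, stood at 10.00, 9.86, 10.08, 10.30 and 10.13 in DW8 mice, against 9.24, 9.57 and 9.71 in DC8 mice (difference 0.58, SE 0.11, adjusted p = 0.0088). Ptpn11, the phosphatase SHP2, stood at 7.49, 7.19, 6.94, 6.97 and 7.16 in DW8 mice, against 6.29, 6.48 and 6.91 in DC8 mice (difference 0.64, SE 0.12, adjusted p = 0.00971). For both, every DW8 mouse lay above every DC8 mouse. Adipor2, an adiponectin receptor, stood at 11.14, 10.68, 10.62, 10.31 and 11.35 in DW8 mice, against 9.39, 9.66 and 10.34 in DC8 mice, where DC8 mouse 1 overlapped (difference 1.12, SE 0.18, adjusted p = 0.00494, or 1.22 and 0.0006 without that mouse). With single mice left out in turn, the calls were lost for 10 of the 12 mice (Gsk3b), 11 (Ptpn11) and 9 (Adipor2), at adjusted p of up to 0.0262. Each of these 3 genes was called in 1 probe set only. The other probe sets differed by 0.11 for Adipor2 (1 probe set) and by medians of -0.02 for Ptpn11 (2) and 0.26 for Gsk3b (5). Klf4, a transcription factor that the study singles out, stood at 12.80, 12.87, 12.77, 12.74 and 12.94 in DW8 mice, against 12.31, 12.49 and 12.63 in DC8 mice. Although the groups did not overlap, its difference of 0.34 (SE 0.08) was not called (adjusted p = 0.0233), and neither was that of Tsc2, an inhibitor of mTOR complex 1 (-0.10, adjusted p = 0.642).

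Markers of adipocytes were high and alike: over 9 measured genes the median difference was 0.03 and the mean level was 12.76 to 12.98 in DW8 mice, against 12.63 to 12.85 in DC8 mice. Medians were 0.01 over 16 macrophage genes and -0.10 over 13 genes of T, B and plasma cells, with no call in either (2 and 3 at an unadjusted p under 0.05). Endothelial genes had a median of -0.19 with 15 of 17 below 0 and 7 at an unadjusted p under 0.05, and Gpihbp1, described above, is the one called. Fibroblast and preadipocyte genes had a median of -0.26 with 13 of 16 below 0 and 7 at an unadjusted p under 0.05, beside 20.9% of all genes. Smooth muscle and pericyte genes had a median of -0.28 with 9 of 9 below 0 (2 at an unadjusted p under 0.05). Mesothelial genes had one of -0.25 with 13 of 14 below 0 (0 at an unadjusted p under 0.05). By highest-level probe sets there was no call in these 3 lists. By any probe set Lox, of the fibroblast list, was called higher at 0.86, with a median of 0.25 over its 2 others. Of all genes 1.63% were called higher in this way. The 16 genes of that list have 35 probe sets, against 34945 for all 18193 genes. Pecam1, an endothelial adhesion protein, differed by -0.67 (adjusted p = 0.0438) and Rgs5, a pericyte marker, by -0.45 (adjusted p = 0.0178). In such bulk samples fewer cells of a type and less RNA per cell cannot be told apart, and the part of these cells in the other results was not tested.

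In the D mice of the 16-week groups, which share no animal with the 8-week groups, 1545 probe sets (3.43%) were called in DW16 against DC16, 359 higher (0.797%) and 1186 lower (2.63%). Of the 485 called at 8 weeks, 107 were among them, 22.1% of the 8-week calls and 6.93% of those at 16 weeks, and all 107 lay in the same direction. They were 90 of the 415 called higher (21.7%) and 17 of the 70 called lower (24.3%). Of the 415, 306 (73.7%) lay above 0 in DW16 against DC16, with a median of 0.36. Of the 70, 66 (94.3%) lay below 0, with a median of -0.56. Over all probe sets 54.7% had the same sign in both comparisons. Of the 9 DW16 arrays 7 span a narrower range of values (SD 2.14 to 2.35). Beyond the remaining 2 mice, that range cannot be told apart from 16 weeks of Western diet. Without those 7 arrays limma called no probe set (3465 had an unadjusted p under 0.05). Of the 8-week calls, 368 of the 415 (88.7%) then lay above 0 and 57 of the 70 (81.4%) below 0. In ApoE-/- mice, EW16 against EC16, 1200 probe sets (2.66%) were called, 122 higher (0.271%) and 1078 lower (2.39%), among them 30 of the 485, or 6.19% of the 8-week calls and 2.5% of the calls there, all in the same direction. They were 10 of the 415 called higher (2.41%) and 20 of the 70 called lower (28.6%). Of the 415, 207 (49.9%) lay above 0 in EW16 against EC16, with a median of -0.00, and of the 70, 66 (94.3%) lay below 0, with a median of -0.64, beside 55.2% of all probe sets with the same sign in both comparisons. EW16 mice 1 to 3 have arrays of narrow range (SD 2.11 to 2.32), and without them 3160 were called, 43.8% of them higher, against 10.2% with all mice. Without EW16 mice 5 to 8, left out after their values had been seen, 1 probe set was called there. Of the 415, 268 (64.6%) then lay above 0, with a median of 0.24. Without EW16 mice 1 to 3 in their place, 187 (45.1%) lay above 0, with a median of -0.05.

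Called in all 3 comparisons were 13 probe sets, 5 higher and 8 lower, of 11 genes. Given for DW8, DW16 and EW16, each against its own chow group, the differences were 1.55, 1.06 and 1.20 for Abcg1 and 1.51, 0.76 and 1.26 for Gramd1b. For Cyp1a1 they were -2.55, -3.12 and -3.23, for Cdkn1c -0.88, -1.40 and -1.59, and for Gclm -0.46, -1.58 and -1.56. Without the narrow-range DW16 arrays, which leaves 2 DW16 mice, the DW16 difference was -1.51 for Cyp1a1, -1.01 for Cdkn1c and -0.54 for Gclm, 1.24 for Abcg1 and 0.76 for Gramd1b. The other 6 genes were Malat1 (in a probe set other than those described above), Son, a splicing protein, and Crls1, the cardiolipin synthase, which were higher, and Ptp4a3 (-1.68 in DW16, or -0.38 without those arrays), Tle1 and Vtn, which were lower; the Crls1 probe set can bind near-identical sequences and the gene is uncertain. At 8 weeks the calls of these Malat1 and Crls1 probe sets were lost for 9 and 10 of the 12 mice left out in turn. Those of this Gramd1b probe set and of Son were lost for 5 and 2. Abcg1 levels ran from 10.34 to 11.09 in DW16 mice and 9.56 to 9.90 in DC16 mice, and from 10.61 to 11.61 in EW16 mice and 9.63 to 10.31 in EC16 mice. In both pairs the Western group lay wholly above its chow group. For Cyp1a1 the ranges were 6.66 to 10.36 in DW16 mice and 10.34 to 11.49 in DC16 mice, and 6.08 to 8.92 in EW16 mice and 10.36 to 10.92 in EC16 mice. Here the highest DW16 mouse overlapped the lowest DC16 mouse, and the EW16 and EC16 mice were apart.

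Malat1 was not called in all 3 comparisons by its probe set of largest change. There DW16 mice ran from 9.52 to 10.70 and DC16 mice from 6.96 to 9.37 (difference 1.75, adjusted p = 0.00496), whereas EW16 mice ran from 6.09 to 10.78 and EC16 mice from 8.55 to 9.09 (difference -0.73, adjusted p = 0.581). EW16 mice 5 to 8 were the low ones, at 6.09, 6.28, 6.23 and 6.16. EW8 mice, which have no chow group of their own age, stood at 10.22 to 11.94 for Malat1, 11 to 12.13 for Abcg1 and 6.73 to 10.60 for Cyp1a1.

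**Figure D5:**
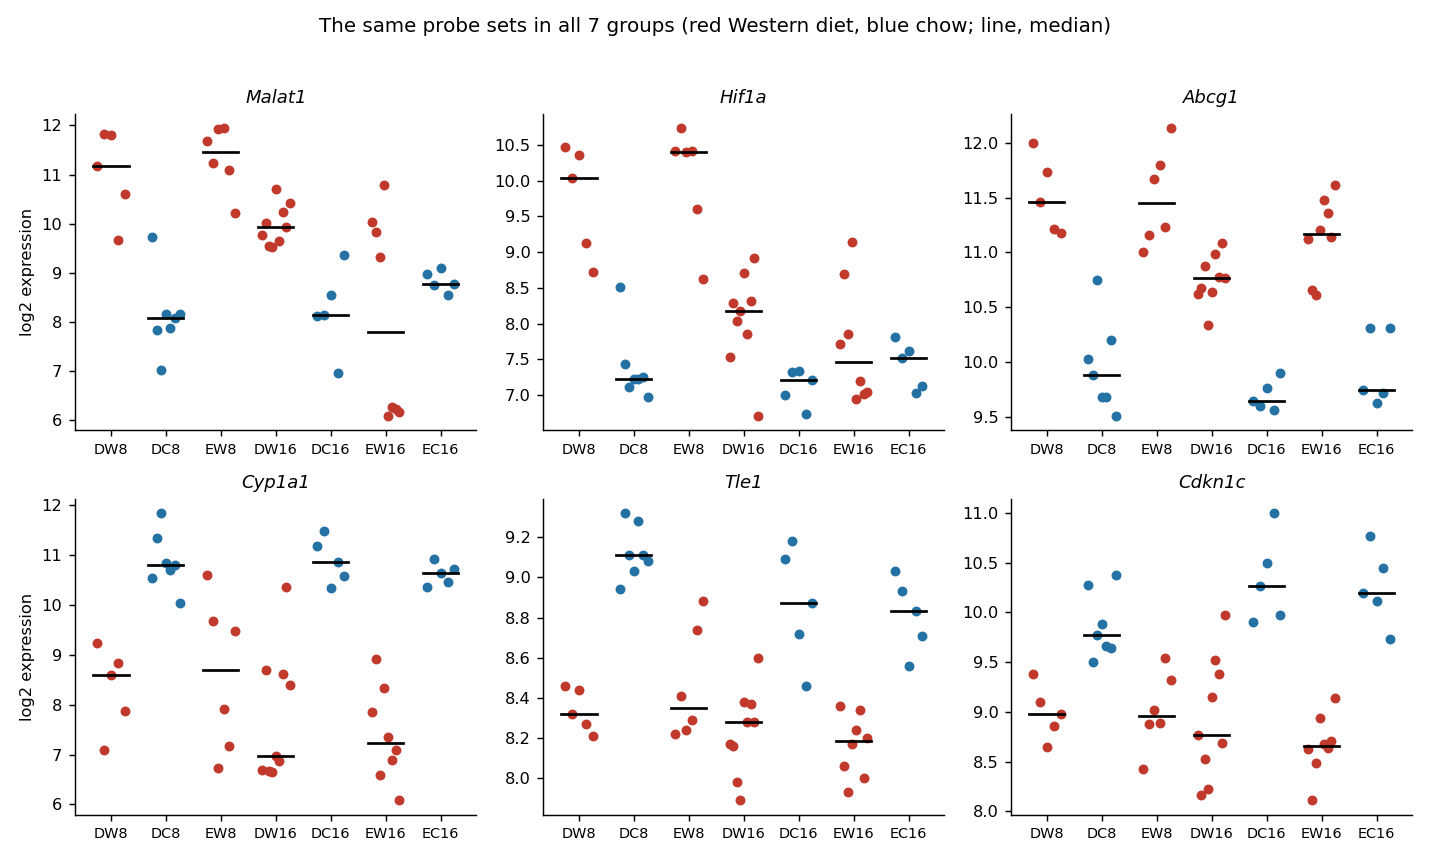
Log2 level of 6 probe sets in each mouse of the 7 groups, with red for Western diet, blue for chow and a line at each group's median. Abcg1 is higher and Cyp1a1 lower in the Western groups of both genotypes, while Malat1 is low in EW16 mice 5 to 8.

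Whether the diet difference at 8 weeks was another than at 16 weeks was tested in one fit over the 26 D mice. Of 45037 probe sets 2 (0.00444%) were called, neither of them among the 485, while 12482 had an unadjusted p under 0.05. This count moved with single arrays and with their weights: 3037 were called without DW16 mouse 8, 1591 without DW16 mouse 9 and 8892 with array weights. One was of Igkv8-30, an immunoglobulin light chain segment whose probe set can bind near-identical copies and whose gene is therefore uncertain: it differed by 0.85 at 8 weeks (adjusted p = 0.101) and by -1.48 at 16 weeks (adjusted p = 0.00104), a gap of 2.33 (adjusted p = 0.00899). With all arrays weighted alike, none of the 485 passed the threshold for the gap. Its adjusted p was 0.053 for Hif1a, 0.061 for Nr4a2, 0.172 for Malat1, 0.173 for Abcg1 and 0.609 for Cyp1a1. It was 0.0373 for Abca1, which differed by -0.31 at 16 weeks (adjusted p = 0.248), and 0.0399 for Mup3. Without the narrow-range DW16 arrays, no probe set was called for this gap (4018 had an unadjusted p under 0.05). The differences of Pth1r and Hsd11b1 were larger in DW16 mice than in DW8 mice as values, without a call for the gap. Against DC16 mice Pth1r differed by -2.84 (adjusted p = 0.00189) and Hsd11b1 by -1 (adjusted p = 0.00189). These 16-week values, like that of Abca1, rest on all DW16 arrays, 7 of them of narrow range. With those arrays the 16-week medians were -0.47 for the hormone receptor list, -0.34 for the glucocorticoid list and -0.16 for the LXR list. Without them they were -0.20, 0.19 and 0.27. The part of the narrow range in the gene values was not tested.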

How the data were processed

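Adipocyte RNA of 45 female mice was hybridized to Affymetrix MG430 2.0 arrays, and the authors normalized them with RMA, so that the deposited table holds log2 values, 1 for each probe set and mouse. The version of RMA, and whether it was run on all 45 arrays at once, are not given in the sources used here. Values were used as deposited, with 0 columns left out. No depth exists for arrays, and the number of mice limits the precision. Nothing states that the mice of a group were litter mates or were processed on different days.

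Of 45037 probe sets 34945 had 1 gene symbol, 932 had several and 9160 had none, in GEO's platform annotation. They cover 18193 genes, 9010 with more than 1 probe set. Promoters were taken from RefSeq.

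DW8 and DC8 were compared on their 12 arrays in R 4.3.3 with lmFit and eBayes of limma 3.58.1, adjusted after Benjamini and Hochberg, with a threshold of 0.01 and no filter on level. DW16 with DC16 and EW16 with EC16 were fitted alike on their own arrays, and the difference of the diet effect between 8 and 16 weeks on 26 arrays. The comparison of EW16 with EC16 was added after seeing the data. Gene lists are described by counts and medians, with no test. The members and lists were chosen with earlier results of these data known. Of 1108 entries in 57 lists 1001 were measured, and 30 lists are described.

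Genes named are the 15 largest rises and 15 largest falls among called probe sets with 1 symbol, for each list up to 4 members by smallest adjusted p, called genes of the contrast between 8 and 16 weeks, the deleted genes, and Klf4, Irs2 and Tsc2, with their other probe sets. Genes called in all 3 diet comparisons, genes of ubiquitin ligases called by any probe set, and Gsk3b, Ptpn11 and Adipor2 were named after their values were seen.

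SAM was written from its description, with 100 permutations, since the study called a gene where limma and SAM both did. The other alternatives were 1 spread over 7 groups, array weights, a trended and robust eBayes, median centring, only those probe sets whose level is above the median, a further quantile normalization, an adjusted p of 0.05, a fold of at least 2, the replicate number as a block, the mean of all probe sets of a gene, and each mouse left out in turn. Covariates for the SD of the array and the same mice without the block were tried as well. Leaving out DW16 mice one at a time and EW16 mice was added after seeing the data. Same-numbered mice did not deviate together: correlations between deviations were -0.127, 0.0803, 0.0713, 0.0313 and -0.0889.

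Steps were tested on simulated data over 45037 probe sets. For DW8 against DC8, limma recovered 42% of 50 probe sets changed by 0.5, 90% of those changed by 1 and 100% of those changed by 2, with 3 false calls. For the contrast of 8 with 16 weeks it recovered 4%, 62% and 90%, with 1 false call. The simulated errors were independent normal draws for each probe set and array. Deviations shared by many probe sets of a mouse, as in DC8 mouse 1, were not simulated. The numbers of false calls therefore cannot be carried over to the real arrays. Python 3.11.15, pandas 2.3.3, NumPy 2.4.6 and Matplotlib 3.10.9 were used for tables and plots.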

Additional observations from a re-analysis of the deposited data

Results flagged for a closer look

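In 21 of 186 groups of named probe sets, 1 mouse lay far from the rest of its group by Dixon's criterion, which chance alone meets in about 1 in 20 independent groups. The 186 groups come from the same 12 mice and are not independent, so their number cannot be set against that rate. In 14 of the 21 the mouse was DC8 mouse 1, which had the highest level of its group. These log2 levels were 9.73, 12.29 and 8.51 for 3 probe sets of Malat1, 8.51 for Hif1a, 7.69 for Kpna4, 7.59 for a second probe set of Cdkn1b, 8.14 for Utrn, 6.38 for Baz1b, 6.89 for Itsn2, 6.11 for Slmap, 6.58 for Scoc, 7.76 for U2surp, 9.17 for Rbm25 and 10.34 for Adipor2. The next DC8 mouse stood at 8.16 for the first Malat1 probe set and 7.44 for Hif1a. DC8 mouse 3 stood apart in 3 probe sets, lowest for a second probe set of Hif1a (12.48, next 12.79) and for Arid1b (7.60, next 7.96) and highest for the second probe set of Abcg1 (8.60, next 8.06).

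Among DW8 mice, mouse 3 was highest for Rbm25 (9.63, next 9.31). Mouse 5 was lowest for Hmox1 (9.12, next 10.39) and highest for Lep, which codes for leptin (12.11, next 11.17). Mouse 4 was lowest for Rgs5 (11.55, next 11.95). The difference of Western from chow at 8 weeks, minus that at 16 weeks in D mice, was called for Igkv8-30 (2.33, from 0.85 at 8 weeks and -1.48 at 16 weeks) and for a probe set without a symbol (1.79).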

How the results depend on the processing

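Of 57 named probe sets that were called in DW8 against DC8, all kept their direction under every alternative, 19 stayed called without each mouse in turn, and the size of the difference without a mouse was 0.83 to 1.17 times that with all mice, at an adjusted p of up to 0.0307. Under array weights 57 were still called, under eBayes with trend and robust 55, with the SD as a covariate 54, under quantile normalization 52 and under median centring 50. Of 1767 values of named probe sets 1353 kept their side of the threshold, 396 lost a call, 15 gained one and 3 changed sign, all 3 of Irs1 (0.04 without DW8 mouse 3, 0.02 without DC8 mouse 2 and 0.02 without DC8 mouse 7, against -0.04 with all mice and -0.15 to 0.04 over all mice left out). Most calls were lost without DW8 mouse 3 (35 of 57) and DW8 mouse 2 (33), and fewest without DC8 mouse 1 (1). Of 450 medians of lists 443 moved by less than the spread between mice.

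The count of 485 called was 140 to 1165 with 1 mouse left out: 240, 151 and 140 without DW8 mice 1, 2 and 3, and 1165, 234, 156, 187, 260 and 207 without DC8 mice 1, 2, 4, 5, 6 and 7. It was 147 with 1 spread over 7 groups, 1293 with array weights (926 higher), 2162 at an adjusted p of 0.05 (65.9% higher, against 85.6% at 0.01), 166 with a fold of at least 2 and 460 by limma and SAM (778 by SAM alone). The study, by limma and SAM at a false discovery rate of 0.01, reported far fewer genes for DW8 against DC8. Its settings for SAM are not given, and the reason for the gap was not tested. Quantile normalization gave 519, 79.4% of them higher. With the replicate number as a block over mice 1 to 5, 22 were called, and 20 in the same mice without the block; 4 of the 57 named probe sets were called in each, with fewer mice.

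For the difference between 8 and 16 weeks, 2 called became 12 with trend and robust, 8892 with array weights, 24 above the median level, 13 with median centring, 60 with quantile normalization, 2910 at 0.05, 0 without the narrow-range DW16 arrays, 5117 with the replicate block, and 0 to 3037 with 1 mouse left out, the highest without DW16 mouse 8. For DW16 against DC16, 1545 became 0 without those arrays, 7813 with the block and 51 to 6041 with 1 mouse left out, and quantile normalization gave 47.9% higher in place of 23.2%. For EW16 against EC16, 1200 became 1 without EW16 mice 5 to 8, 3160 without the narrow-range EW16 mice 1 to 3 (43.8% higher), 0 with the block (11480 at an unadjusted p under 0.05) and 38 to 553 with 1 EC16 mouse left out, and quantile normalization gave 36.1% higher in place of 10.2%. Apart from settings that use fewer mice or another threshold, the cause was not tested. The number of mice limits small differences.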
